A study of Mus musculus with 4 samples.

Results

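The probes described here are 59 of the 42006 probes on a mouse oligonucleotide array (0.14%). They gave a low signal in embryonic stem cells whose Zscan4 reporter was off and a clearly brighter signal in cells whose reporter was on. They were chosen by measured values. Each one had a log2 ratio to the reference pool at least 1 higher in the Emerald-positive than in the Emerald-negative sample, in replicate 1 and in replicate 2. Each one also had a net Cy3 signal (spot mean minus local background) over the level of negative-control spots on both Emerald-positive arrays, and at or below that level on 1 or both Emerald-negative arrays. That level, called T below, is the mean plus 2.6 SD of the net signal over 314 negative-control spots, set separately on each array. The differences that chose the probes are given as a description, without a test. By a control level less sensitive to a few bright control spots, 36 of the 59 stood above background in both Emerald-negative samples, so the probes are described by this rule and not as silent in those cells.

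The cells were male mouse embryonic stem cells of strain 129/Sv, transfected with a linearized vector in which the Zscan4c promoter drives Emerald, a green fluorescent protein. Blasticidin-resistant colonies were picked, so the line stands for 1 clone, and both fractions carry the reporter. A suspension of the cells was sorted by fluorescence into an Emerald-positive and an Emerald-negative fraction, written Emerald+ and Emerald-, on each of 2 days, which gave 2 samples a group, and the replicate number names the day. Each sample's RNA, labelled with Cy3, was hybridised beside a Cy5-labelled pool of RNA from 11 mouse cell lines. The labels do not say whether the days were separate cultures, so the spread between replicates may be partly technical.

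Zscan4 genes encode proteins with a SCAN domain and zinc fingers. They are known for a burst of expression in the early cleavage embryo and for short, intermittent bursts in a minority of cultured embryonic stem cells, with most cells silent at any moment. A reporter on the Zscan4c promoter is used to separate cells in and out of that state, and the comparison asks how their expression differs. None of the probes has a gene name in the files, so the probes are reported by identifier and sequence, and the labelled cell type could not be checked against its markers. In sorted bulk samples, more cells with a transcript and more transcript per cell cannot be told apart.

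The 10 probes with the largest differences, ranked by the smaller of their 2 daily values, are shown first because the account of levels turns on them. Sequences are the deposited 60-base probe sequences, 5′ to 3′. In Z00009978-1 and Z00054501-1, capitals mark the stretch shared with another probe of the array, described further on.

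Z00009978-1: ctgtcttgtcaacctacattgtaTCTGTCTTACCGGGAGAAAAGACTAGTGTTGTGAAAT
Z00010834-1: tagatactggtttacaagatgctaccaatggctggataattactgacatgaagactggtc
Z00031029-1: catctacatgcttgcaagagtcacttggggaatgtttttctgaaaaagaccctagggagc
Z00054501-1: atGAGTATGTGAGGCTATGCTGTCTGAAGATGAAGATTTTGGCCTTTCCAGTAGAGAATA
Z00064570-1: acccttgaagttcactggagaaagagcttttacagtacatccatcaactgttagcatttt
Z00014650-1: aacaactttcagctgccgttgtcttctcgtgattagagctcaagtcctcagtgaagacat
Z00025583-1: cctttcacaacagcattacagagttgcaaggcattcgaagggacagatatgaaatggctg
Z00053189-1: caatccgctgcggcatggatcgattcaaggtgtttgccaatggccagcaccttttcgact
Z00038869-1: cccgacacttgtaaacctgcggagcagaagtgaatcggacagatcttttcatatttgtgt
Z00070929-1: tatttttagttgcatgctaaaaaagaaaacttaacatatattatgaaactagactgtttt

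Arrays differed in brightness. The median net Cy3 signal over all probes was 241 and 122 on the Emerald+ arrays of replicates 1 and 2, and 217 and 136 on the Emerald- arrays. T was 61.6 and 33.8 on the Emerald+ arrays and 65.2 and 58.3 on the Emerald- arrays. With 2 arrays a group, their number limits the precision throughout.

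As a group, the 59 probes went from near the dim end of the array to moderate brightness. Their median net Cy3 signal was 60.0 and 44.5 on the Emerald- arrays of replicates 1 and 2, and 179 and 161 on the Emerald+ arrays. Against the pool, the log2 ratio had a median of -0.05 and -0.05 in Emerald- cells and 1.85 and 2.31 in Emerald+ cells, while the median over all probes was between -0.02 and -0.01 on every array. The difference, Emerald+ minus Emerald-, ran from 1.03 to 5.11 with a median of 1.94 in replicate 1. In replicate 2 it ran from 1.17 to 5.66 with a median of 2.35. Averaged over both days the median difference was 2.13 on the log2 scale. With normexp background correction it was 1.503 at an offset of 50 and 2.08 at an offset of 10, and without any background correction it was 0.47, so the size of these differences depends on how the background of dim spots is treated.

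The ratios of the Emerald+ and Emerald- arrays did not overlap for any of the 59 probes, against 14.6% of all probes without overlap. The rule fixes this separation within each day and favours it across days, so nothing is read from it. The net Cy3 signal, with no reference in it, separated the fractions for 58 of the 59, against 4.18% of all probes. The rule used this signal too, so nothing is read from that count. The median SD of the log2 ratio over the 2 days was 0.33 in Emerald+ and 0.13 in Emerald- cells. Because the Emerald- signals were dim, the smaller SD there is not read as steadier expression.

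Z00009978-1 had net Cy3 signals of 2087 and 2268 on the Emerald+ arrays of replicates 1 and 2, and 86.0 and 45.0 on the Emerald- arrays. Its log2 ratio to the pool was 5.21 ± 0.15 (SD, n = 2) in Emerald+ and -0.13 ± 0.19 (SD, n = 2) in Emerald- cells. The differences were 5.11 in replicate 1 and 5.59 in replicate 2. Emerald- cells were thus near the pool in this probe and Emerald+ cells far above it, and in Emerald- replicate 1 the signal stayed above T.

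Z00010834-1 stood in another relation to the pool. Its net Cy3 signals were 1487 and 1961 in Emerald+ and 47.5 and 45.3 in Emerald- cells, while its Cy5 signal from the pool was high on all 4 arrays, from 804 to 1035. Its log2 ratio was 2.14 ± 0.51 (SD, n = 2) in Emerald+ cells and -3.17 ± 0.01 (SD, n = 2) in Emerald- cells, with differences of 4.96 and 5.66. This probe was therefore clearly detected in the pooled cell lines, at or below T in Emerald- stem cells, and above the pool in Emerald+ stem cells.

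Z00031029-1 had net Cy3 signals of 17813 and 16709 in Emerald+ cells and 76.5 and 45.7 in Emerald- cells. Its log2 ratio was 5.79 ± 0.17 (SD, n = 2) against 0.65 ± 0.09 (SD, n = 2), with differences of 4.96 and 5.32. The ratio understates the change of the Cy3 signal here, because the net Cy5 signal of the same pool was 816 and 679 on the Emerald+ arrays and 65.9 and 18.4 on the Emerald- arrays. With the processed Cy3 signal alone, the differences were 8.13 and 9.63. It was the only one of the 59 whose Cy5 signal was at least 2-fold higher on the Emerald+ array on both days, against 20 of all probes (0.0476%), and the median Cy5 difference over the 59 was -0.04 and -0.05. Its cause was not tested.

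Z00054501-1 was at or below T on both Emerald- arrays, with net Cy3 signals of 44.0 and 39.9, and gave 799 and 951 on the Emerald+ arrays. Its log2 ratio was 4.27 ± 0.35 (SD, n = 2) against -0.51 ± 0.08 (SD, n = 2), with differences of 4.48 and 5.09. Z00064570-1 gave 2264 and 1684 in Emerald+ cells and 66.1 and 32.6 in Emerald- cells. The latter pair straddles T, and the differences were 4.37 and 4.64. As with Z00031029-1, its Cy5 signal also differed between the arrays, by 0.96 and 2.48 on the log2 scale.

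Z00014650-1 showed the same form with 2316 and 1378 against 70.9 and 44.5, and differences of 4.21 and 4.33. Its Cy5 signal was higher on the Emerald+ arrays by 0.94 and 1.35. Z00025583-1 had 908 and 611 against 57.6 and 36.5, with differences of 3.99 and 5.28. It was the one of these 10 whose days lay furthest apart in the difference, and its log2 ratio was 4.76 ± 0.66 (SD, n = 2) in Emerald+ and 0.13 ± 0.26 (SD, n = 2) in Emerald- cells.

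Z00053189-1 had net Cy3 signals of 894 and 734 against 53.4 and 41.4, and differences of 3.85 and 4.19. Z00038869-1 had 667 and 406 against 80.1 and 55.8, with differences of 3.60 and 3.68, the closest agreement between days among the probes listed first. Both lay at or below T in Emerald- replicate 2, and the first also in replicate 1. Z00070929-1 had 193 and 155 against 27.9 and 30.2. These Emerald- signals sit on the negative-control medians of 29.6 and 29.8, so its differences of 3.18 and 4.10 rest on a denominator at background.

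Large changes were the minority. On both days the measured ratio differed by at least 16-fold for 6 of the 59 probes, 8-fold for 11 and 4-fold for 26, which leaves 33 under 4-fold on at least 1 day. Of these 6, 11 and 26 probes, 2, 6 and 17 were at or below T on both Emerald- arrays. Their measured folds rest on a signal near background, and only the lower bounds given further on hold for them. Each of the others was at or below T on 1 Emerald- array, so its measured fold on that day rests on such a signal too. The difference was larger in replicate 2 for 47 of the 59. The days differed by a median of 0.48 on the log2 scale and by at most 1.73. Across the 59 probes, which share the 4 arrays and are not independent, the differences of the 2 days followed each other with Pearson's r = 0.883 and Spearman's rho = 0.799. With the processed Cy3 signal alone, all 59 were higher in Emerald+ cells on both days, 53 of them at least 2-fold on both. The median differences were 1.59 and 2.31. The ratio used by the rule contains this signal, and the share of all probes was not computed, so nothing is read from these counts.

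The middle and lower ranks held most of the probes. In 15 probes the smaller daily difference lay between 2 and 3. Their net Cy3 signals had medians of 214 and 218 on the Emerald+ arrays of replicates 1 and 2 and 53.9 and 41.6 on the Emerald- arrays, and 11 of them were at or below T on both Emerald- arrays. In 6 probes it lay between 1.5 and 2, with medians of 225 and 199 against 71.6 and 52.8. The 27 probes between 1 and 1.5, the largest stratum, were dim in both fractions, with medians of 135 and 95.4 against 60.5 and 49.9. Their brightest net signal on any array was 273.

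The days differed by more than 1 on the log2 scale for 11 probes, and in 10 of these the larger difference was in replicate 2. The widest gaps, named after their values were seen, were those of Z00007453-1 (1.24 and 2.97), Z00031214-1 (2.36 and 4.08) and Z00072401-1 (2.48 and 3.88). In Z00031214-1 the Emerald- log2 ratios were steady, at -0.11 and -0.16, while the Emerald+ ratios were 2.25 and 3.92. Z00072401-1 showed the same form, with 0.10 on both Emerald- arrays and 2.58 and 3.98 on the Emerald+ arrays. The day-to-day spread of Z00031214-1 thus lay in the ratios of the reporter-positive fraction. For Z00072401-1 the Emerald- net Cy3 signals were 42.1 and 29.7, near background. A steady ratio at that level cannot show that Emerald- cells did not vary.

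For comparison, limma on the background-corrected ratios called 92 of all probes higher in Emerald+ cells at an adjusted p under 0.05 (0.219%), and 23 of these were among the 59. With the replicate number as a block the figures were 309 of all probes (0.736%) and 47 of the 59. Nothing is read from these shares, because the rule used the same contrast. Without Emerald- replicate 1 or without Emerald- replicate 2 the count among the 59 was 6, and it was 16 without Emerald+ replicate 2. It was 7 without background correction, 9 with the Cy3 channel alone and 12 with the authors' value table.

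How close to background the Emerald- signals lay is the point on which the description as switched on depends. Of the 59 probes, 34 were at or below T on both Emerald- arrays, 22 in replicate 2 alone and 3 in replicate 1 alone. T on those arrays was raised by a few bright negative-control spots: 8 spots in replicate 1 and 1 spot in replicate 2 exceeded the control median more than 2-fold, with maxima of 163 and 191. A level from the median and the median absolute deviation of the same spots was 42.5 and 42.7 in place of 65.2 and 58.3. By that level 36 of the 59 were above background on both Emerald- arrays, 15 on 1 and 8 on neither.

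By this measure most of the 59 were dim, but not at background, in Emerald- cells. On the Emerald- arrays 51 probes in replicate 1 and 46 in replicate 2 exceeded the control spots' 95th percentile, and 58 and 57 exceeded their median. T also differed between arrays of a pair. Of the 56 probes at or below T in Emerald- replicate 2, 50 had a net signal there above the T of Emerald+ replicate 2.

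The 8 probes at or below the median-based level on both Emerald- arrays come nearest to a change from background. They include Z00070929-1, Z00056332-1, Z00072401-1, Z00070905-1, Z00031864-1, Z00038105-1 and Z00072216-1, singled out after their values were seen, and these 7 do not stand for all 8. The Emerald- net signals of the 8 ran from 27.0 to 42.1. In Emerald+ cells Z00072401-1 gave 134 and 174, with differences of 2.48 and 3.88. Z00038105-1 gave 77.7 and 70.4 and differed by 1.77 or less. The sequence of the latter, printed because its signal in Emerald+ replicate 1 was the lowest of the 8, shares no linked stretch with another probe of the array.

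Z00038105-1: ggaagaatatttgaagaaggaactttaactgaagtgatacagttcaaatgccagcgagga

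For the 34 probes at or below T on both Emerald- arrays, a fold change is only a lower bound. It sets the Emerald+ mean against, on each Emerald- array, the higher of the probe's own signal and the lowest signal of any probe above T, on normalized Cy3 values. These bounds ran from at least 1.21-fold to at least 23.6-fold, with a median of 2.02. The largest belonged to Z00010834-1 (at least 23.6-fold higher), followed by Z00054501-1 (at least 13.4-fold), Z00053189-1 (at least 12.6-fold) and Z00025583-1 (at least 11.2-fold). At this offset only 4 bounds therefore exceeded 10-fold, and the bound at the median is near 2-fold.

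The position of the spots on the array went with membership. Of the 59 probes, 32 (54.2%) lay in block 1 when the array's columns were split into 4 equal blocks, 10 in block 2, 13 in block 3 and 4 in block 4, whereas each block holds close to an even share of all probes (10539 of 42006 in block 1). Block 1 was the dimmest on every array. In Emerald- replicate 2 its median net Cy3 signal was 71.6 against 202 in block 4, and 41.8% of its probes were at or below T against 6.15%. Among the 255 probes raised at least 2-fold on both days and above T on both Emerald+ arrays, 38.6% of those in block 1 were among the 59, against 16.9%, 18.8% and 9.09% in blocks 2 to 4.

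The 196 raised probes that stayed above T on all 4 arrays were not concentrated there: 51 of them lay in block 1. With the median-based level computed within each block of columns, 47 of the 59 were above background on both Emerald- arrays, and 12 were at or below it on 1 or both. Row position showed no such gradient, with 14, 14, 16 and 15 probes in 4 equal blocks of rows. The part of spot position in the choice of these probes was otherwise not tested.

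The reference pool places the 2 fractions on a common scale. In the Cy5 channel 46 of the 59 probes were above the pool's own negative-control level on all 4 arrays, 12 on some and 1 on none. The 46 are 78.0% of the 59, against 95.6% of all probes, and the rule took probes with a dim Cy3 signal. A ratio near 0 says little where both channels are dim. Emerald- cells were within 2-fold of the pool on both arrays for 52 probes and more than 2-fold below it on both for 5. Emerald+ cells were more than 2-fold above it on both arrays for 49. The shares of all probes were not computed for these counts against the pool, so nothing particular to the 59 is read from them.

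In 3 probes, named after their values were seen, the log2 ratio to the pool was below 0 on all 4 arrays. The Emerald+ ratios were -2.95 and -2.90 for Z00031126-1, far below the pool, and -0.89 and -0.90 for Z00016886-1. For Z00053359-1 they were -0.02 and -0.11, close to the level of the pool. Z00031126-1 was the extreme, with net Cy5 signals from 2295 to 2929 and net Cy3 signals of 162 and 130 in Emerald+ and 67.5 and 55.8 in Emerald- cells. Its differences were 1.23 and 1.29. Z00016886-1 differed by 1.24 and 1.35 with Cy5 signals from 468 to 621, and Z00053359-1 by 1.43 and 1.46 with Cy5 signals from 164 to 228.

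Sequence relations among the probes were searched next, since probes that share a target are not separate observations. Probes were taken as linked where they shared at least 24 aligned bases at 80% identity or more on the same strand. Of the 59, 13 (22.0%) were linked to some other probe of the array, against 2731 of all probes (6.50%), and 8 were linked to another of the 59. The linked probes fell into 8 families. The pairs within the 59 are printed with the shared stretch in capitals, because they show which of the values repeat one target or a close relative.

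Z00064311-1: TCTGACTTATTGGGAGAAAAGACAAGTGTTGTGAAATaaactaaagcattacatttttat
Z00027194-1: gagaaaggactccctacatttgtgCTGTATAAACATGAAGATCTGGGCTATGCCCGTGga
Z00070905-1: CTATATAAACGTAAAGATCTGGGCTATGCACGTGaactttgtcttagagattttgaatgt
Z00072989-1: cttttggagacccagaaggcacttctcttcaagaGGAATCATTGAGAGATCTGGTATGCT
Z00073036-1: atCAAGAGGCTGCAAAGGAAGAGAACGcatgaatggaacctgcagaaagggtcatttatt

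Z00064311-1 shares 37 aligned bases at 89.2% identity with Z00009978-1, the top-ranked probe. Its net Cy3 signals were 470 and 463 in Emerald+ and 67.5 and 41.6 in Emerald- cells, with differences of 2.97 and 4.21 against 5.11 and 5.59 for Z00009978-1. Both members of this family were therefore raised on both days, and no further probe of the array belongs to it.

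Z00027194-1 and Z00070905-1 share 34 bases at 88.2% identity. The first gave 362 and 262 in Emerald+ and 167 and 53.6 in Emerald- cells, and the second 112 and 71.7 against 41.2 and 27.0. Their differences were close, at 1.95 and 2.35 for the first and 2.43 and 2.20 for the second. A relative outside the 59, Z00070691-1, aligns with Z00070905-1 over 60 bases at 98.3% identity and differed by 1.67 and 1.84. It missed the rule by the narrowest margin of all raised probes: its net signal in Emerald- replicate 2 was 58.4, or 1.002 times T.

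Z00072989-1 and Z00073036-1 belong to the largest family, 24 probes joined through shared relatives. Their capitals mark the stretch each shares without a mismatch with a further probe, Z00031085-1 (26 and 25 bases). These are not the longest shared stretches. Z00073036-1 shares 59 bases without a mismatch with Z00073694-1, which was above T on all 4 arrays. Z00073694-1 gave 104 and 76.8 in Emerald- cells and differed by 1.05 and 1.28. Z00072989-1 gave 155 and 84.6 in Emerald+ and 64.8 and 46.9 in Emerald- cells, with differences of 1.86 and 1.45. Z00073036-1 gave 163 and 90.8 against 69.6 and 44.9, with differences of 1.94 and 1.77. Of the 24 relatives, 14 were raised at least 2-fold on both days, and 12 of these were above T on all 4 arrays. The family's median differences were 1.13 and 1.21. By the median-based control level both Z00072989-1 and Z00073036-1 were above background on both Emerald- arrays too.

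Z00057429-1 and Z00059496-1 carry the same 60 bases and thus repeat one measurement on different spots. Their net Cy3 signals were 96.1 and 71.0 against 44.6 and 41.3 for the first, and 104 and 78.7 against 44.5 and 43.2 for the second. The differences were 1.19 and 1.46 for the first and 1.20 and 1.74 for the second. These identical probes thus differed from each other by 0.01 in replicate 1 and by 0.28 in replicate 2. Other probes with identical sequences, all brighter, show that this pair does not give the general spread between spots. Z00073032-1 and Z00073033-1 had differences of 2.48 and 1.66 in replicate 1, and of 1.54 and 2.0 in replicate 2. For Z00059265-1 and Z00059486-1 they were 0.22 and 0.72 in replicate 1, and 1.01 and 0.82 in replicate 2. A probe shifted by a few bases, Z00059740-1, shares 56 bases without a mismatch with Z00057429-1 and Z00059496-1. Z00059740-1 differed by 0.68 and 1.72 and so missed the 2-fold minimum in replicate 1, where its Emerald- signal was 82.7.

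The identical pair Z00057429-1 and Z00059496-1 was also the only forward match of the 59 to the RefSeq windows around annotated gene starts (32851 windows on GRCm38.p6, each from 250 bases before to 50 bases after a start). Of all probes 0.864% had such a match of at least 30 identical bases, and of the 59 2 did. The matched stretch, 41 bases in capitals, lies from 30 bases before to 11 bases after the start of 3 genes on the forward strand of chromosome 5: Gm46934 at chr5:94778186-94778226, Pramel45 at chr5:95108426-95108466 and Gm46935 at chr5:95425905-95425945. Pramel genes encode leucine-rich repeat proteins of the PRAME family, known from germ cells and early embryos. The match is to 3 copies at once, so the probe's transcript is not assigned to one of them.

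Z00057429-1 and Z00059496-1: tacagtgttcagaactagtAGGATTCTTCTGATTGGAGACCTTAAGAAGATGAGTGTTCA

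Another family holds 4 probes whose differences were all larger in replicate 2. These contain the letters GGTTCGAATCC, which match the B box, an internal promoter element of transfer RNA genes that RNA polymerase III transcribes. The motif was chosen after the sequences were seen. Searched on both strands with any base in place of the last A, it occurred in 2 of the 59 probes (3.39%) and in 5 of all probes (0.0119%). Capitals mark it in the 2 probes of the 59 and in their relatives.

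Z00033851-1: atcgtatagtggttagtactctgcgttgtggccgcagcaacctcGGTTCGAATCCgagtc
Z00073785-1: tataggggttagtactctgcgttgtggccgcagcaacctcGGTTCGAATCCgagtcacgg
Z00054351-1: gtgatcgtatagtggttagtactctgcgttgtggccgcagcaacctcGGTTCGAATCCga
Z00073026-1: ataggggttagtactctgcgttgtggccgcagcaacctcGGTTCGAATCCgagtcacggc

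Z00033851-1 had net Cy3 signals of 123 and 244 in Emerald+ and 59.8 and 53.1 in Emerald- cells, with differences of 1.31 in replicate 1 and 2.58 in replicate 2. Z00073785-1 had 98.4 and 161 against 58.3 and 43.4, with differences of 1.07 and 2.39. It shares 59 bases without a mismatch with Z00073026-1, and Z00033851-1 shares 57 with Z00054351-1. The relatives Z00054351-1 and Z00073026-1 were brighter in Emerald- cells (148 and 103 for the first, 141 and 96.9 for the second) and differed by 0.33 and 0.58 in replicate 1 but by 1.80 and 1.71 in replicate 2. All 4 probes thus differed more in replicate 2, and in none of them did both days agree to within 1 on the log2 scale. The reverse complement of the 2 probes of the 59 matched 1 RefSeq window, that of BC107364 on the reverse strand of chromosome 3. The matches covered 56 bases at chr3:96452501-96452556 and 46 bases at chr3:96452511-96452556, so the probe sequences lie on the strand opposite to that gene, upstream of its start, and the matches run up to the edge of the window. Of all probes 0.762% had a reverse match.

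In the remaining families 1 probe of the 59 stood beside relatives outside it. Z00072895-1 shares 29 bases at 93.1% identity with Z00031210-1, and Z00054501-1, among the 10 of the largest differences, shares 58 bases at 87.9% identity with Z00057246-1. Both relatives were raised and were above T on all 4 arrays. Z00072895-1 had 214 and 199 against 53.9 and 39.0 and differed by 2.20 and 2.98, while Z00031210-1 differed by 3.73 and 4.81 and reached 9171 and 7897 in Emerald+ cells. Z00057246-1 differed by 2.43 and 4.19 against 4.48 and 5.09 for Z00054501-1, with 231 and 97.3 in Emerald- cells.

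Z00007453-1 shares 35 bases at 88.6% identity with each of 2 probes that did not reach 2-fold on both days. Its net Cy3 signals were 177 and 160 in Emerald+ cells and 75.8 and 33.6 in Emerald- cells. The 2 days differed by 1.73, the widest gap among the 59, with 1.24 in replicate 1 and 2.97 in replicate 2. The gap lay mainly in the Emerald- log2 ratios, 1.45 in replicate 1 and 0.06 in replicate 2, against 2.69 and 3.03 in Emerald+ cells. In Emerald- replicate 2 both channels were below their control levels, with a net Cy5 signal of 14.1 against a level of 21.2. The ratio of 0.06 thus says little, and a change in the Emerald- cells between days is not read from it.

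The base composition of the 59 was slightly poorer in G and C than the array as a whole, with a median of 40% against 43.3%. The 196 raised probes above T on all arrays had a median of 40.8%. The letters AATAAA, the common polyadenylation signal, occurred on the forward strand of 5 of the 59 (8.47%), against 6.75% of all probes and 9.69% of those 196. None of the 59 lay in a RefSeq miRNA hairpin. The 5 include Z00064311-1, where the letters begin at base 35.

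At the edge of the 2-fold minimum, the 5 probes just inside were Z00035453-1 (1.14 and 1.74), Z00017558-1 (1.13 and 1.21), Z00025717-1 (1.11 and 1.38), Z00073785-1 (1.07 and 2.39) and Z00051120-1 (1.03 and 1.64). The 5 just outside, which met the conditions on signal, were Z00040719-1 (1.00 and 1.11), Z00071315-1 (0.99 and 1.20), Z00065595-1 (0.98 and 2.13), Z00064489-1 (0.97 and 1.51) and Z00072379-1 (1.21 and 0.97). Z00051120-1 gave 121 and 58.3 in Emerald+ and 60.0 and 33.2 in Emerald- cells, and Z00065595-1, just outside, gave 165 and 158 against 80.8 and 44.1.

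At the edge of T, a probe with a large difference fell just outside. Z00060619-1 differed by 5.23 and 5.17, and its smaller daily value exceeds that of each of the 59, which is 5.11 at most. Its net Cy3 signals were 4901 and 3007 in Emerald+ and 94.6 and 59.6 in Emerald- cells. Its signal in Emerald- replicate 2 was 1.02 times T. Just inside lay Z00056740-1, at 64.5 and 58.1, or 0.99 of T in replicate 1, with differences of 1.32 and 1.43. The 196 raised probes above T throughout had smaller median differences, 1.40 and 1.78, than the 59, a comparison that the choice by brightness affects and that was not tested.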

How the data were processed

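Linear spot intensity in Cy3 and Cy5, with its local background, came from the deposited scanner tables. Per the file headers, these also give a processed intensity after background subtraction and dye normalization by the scanner software. The headers name Feature Extraction 7.5.1 and the series' design text 9.5.1.1. A value table deposited by the authors has log10 values. Its deviations between arrays followed those of the ratio of sample to pool (r between 0.977 and 0.997 across probes), so its direction was taken as sample over reference. The table's values within each array also followed the log2 processed Cy3 signal (r between 0.992 and 0.994 across probes). They are therefore not read as plain log ratios. The medians of its columns were 2.957 and 2.950 for Emerald-positive and 2.954 and 2.948 for Emerald-negative replicates 1 and 2, and its centring stays unknown. All arrays have the same dye orientation.

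Spots were averaged by probe, and the log2 ratio of processed Cy3 over processed Cy5 was used for the rule. For limma 3.58.1 (R 4.3.3), mean signals were normexp-corrected (offset 50) and loess-normalized, 403 outlier spot values were left out, and the Benjamini-Hochberg adjustment ran over all probes. Such an outlier mark fell on none of the 59 probes. Per the labels, samples with one replicate number come from 1 day, so the number pairs them, and their deviations from the means of their groups correlated with r = 0.475 over probes.

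Probes were linked with blastn 2.17.0. RefSeq start windows and miRNA hairpins came from tables on GRCm38.p6. The probes, the named ones (the 10 largest, the 5 on either side of each limit, the largest families and the 5 largest bounds, of which 1 is not reported here) and all lists were chosen with earlier results of these data known. Gene lists and protein matches were not analysed here. The limma, link and rule steps were tested on simulated data. Alternatives covered T, the 2-fold minimum, background correction, the Cy3 channel alone, the authors' table, the block, the link limits and each array left out.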

Additional observations from a re-analysis of the deposited data

How the results depend on the processing

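The rule kept 59 probes, and 31 with a minimum difference of 1.5, 37 with normexp-corrected ratios and 13 without background correction. Leaving out 1 array gave from 84 to 167 probes, because fewer conditions apply. Without Emerald-negative replicate 2, 37 of the 59 were kept, and without Emerald-negative replicate 1, 56 were. In alternatives chosen after seeing the data, the median-based control level kept 23, the same level within 4 blocks of columns 12, and the requirement to be at or below T on both Emerald-negative arrays 34. All of these were among the 59, apart from the probes gained by leaving out an array. The other alternatives to the rule, T at 2 or 3 SD, a minimum difference of 0.8, the authors' table, the Cy3 signal alone and outlier spots left out, gave from 43 to 82 probes.

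The limma count among the 59, 23, became 47 with the replicate block, which included all 23. It was 7 without background correction, 9 with the Cy3 channel alone and 12 with the authors' table, and from 6 to 28 without single arrays. The cause was not tested. The median difference over the 59, 2.13, was 1.503 with normexp offset 50 and 0.47 without background correction, and from 1.94 to 2.35 on single days. Of the probes linked to another of the 59, 8 in all, 4 were left at 90% identity. The counts of probes linked to any probe and of probes above the reference channel's control level stayed within 1.5 times under their alternatives. Protein matches and their alternatives were not run. Depth is unknown for arrays; signal close to the control spots limits every value in Emerald-negative cells.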
